A study of Rattus norvegicus with 6 samples.

Results

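The endothelial gene module is a set of 32 genes that mark the cells lining blood vessels, followed here in the renal cortex of rats given dipropylene glycol (DPG, a glycol solvent) or water. Members were taken by name, through every non-control array probe whose RefSeq transcript belongs to one of the 32 genes. Probes were found for 26 of them, 40 probes among the 61537 non-control probes of the array. Of these, 24 members had a signal that could be tested, among 29647 tested features. No probe was matched by this rule to Robo4, Ptprb, Vwf, Tspan7, Mmrn2 or Egfl7, so their expression was not analysed here. All 6 animals were male Sprague-Dawley rats, 5 weeks old at purchase and on the same basal diet. The control group of 3 rats received water, and the DPG group of 3 rats received 1000 mg/kg/day of DPG, each for 4 weeks. Total RNA of each animal's renal cortex was labelled with Cy3 and hybridised to 1 one-colour Agilent array, so each group has n = 3 arrays.

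Endothelial cells form the inner wall of vessels and keep a common identity through ETS-family and SOX-family transcription factors, which switch on junction proteins, growth factor receptors and vasoactive enzymes. In the renal cortex they are found as fenestrated capillaries of the glomerulus, as peritubular capillaries around the tubules, and as the lining of arterioles and veins. Vascular endothelial growth factor (VEGF), made by podocytes and tubule cells, acts on receptors of these capillaries and maintains them. A bulk measurement of endothelial transcripts does not tell fewer endothelial cells from less of the transcript in each cell, and that holds for every value below.

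Promoters of members were searched for a binding motif of the ETS factors, since Erg, Fli1 and Ets1 are themselves members. RefSeq promoters on the rat assembly GRCr8 were matched by symbol for 18 of the 32 members (Robo4, Egfl7, Mmrn2 and Tspan7, which have no expression value here, among them), and the 250 bases before the gene start were read. The motif AGGAAG, searched on both strands, occurred in 11 of 18 members (61.1%) and in 29.5% of all 33469 promoters of the same length. Each member was read from its first listed promoter, while the background holds every listed promoter, so the shares are not of like units. The composite FOX-ETS motif AACAGGAA occurred in 1 of 18 members (5.56%) and in 2.14% of all promoters. The SOX motif ACAATGG occurred in 1 of 18 members, Nos3, and in 3.23% of all promoters. A match describes these letters in this window and is no evidence that a factor binds there. Shown are 4 promoters with 2 ETS matches each, belonging to a glomerular and peritubular sialomucin (Emcn), the diaphragm protein of fenestrae (Plvap), a VEGF receptor (Flt1) and endoglin (Eng), and that of Ehd3, the member furthest above its control level, which held no match. All lie upstream of the gene start, Emcn at chr2:228564289-228564538, plus strand, Plvap at chr16:18231280-18231529, minus strand, Flt1 at chr12:12333180-12333429, plus strand, Eng at chr3:36332029-36332278, plus strand and Ehd3 at chr6:27417446-27417695, minus strand. They are written 5′ to 3′ along the gene's strand, and capitals mark AGGAAG or its reverse complement CTTCCT.
Emcn: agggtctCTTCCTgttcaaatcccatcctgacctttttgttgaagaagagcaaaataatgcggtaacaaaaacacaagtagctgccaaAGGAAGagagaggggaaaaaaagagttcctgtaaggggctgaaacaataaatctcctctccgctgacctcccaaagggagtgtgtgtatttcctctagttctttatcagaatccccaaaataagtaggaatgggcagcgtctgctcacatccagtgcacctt
Plvap: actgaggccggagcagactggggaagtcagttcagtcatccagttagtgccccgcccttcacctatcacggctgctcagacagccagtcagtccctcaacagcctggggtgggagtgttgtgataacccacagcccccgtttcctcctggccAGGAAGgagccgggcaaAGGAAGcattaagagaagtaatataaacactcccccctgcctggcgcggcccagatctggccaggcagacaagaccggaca
Flt1: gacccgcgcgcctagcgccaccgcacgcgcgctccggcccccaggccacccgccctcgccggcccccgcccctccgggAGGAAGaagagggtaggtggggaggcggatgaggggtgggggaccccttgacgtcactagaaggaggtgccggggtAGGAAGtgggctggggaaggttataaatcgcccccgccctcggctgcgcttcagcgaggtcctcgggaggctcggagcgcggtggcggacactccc
Eng: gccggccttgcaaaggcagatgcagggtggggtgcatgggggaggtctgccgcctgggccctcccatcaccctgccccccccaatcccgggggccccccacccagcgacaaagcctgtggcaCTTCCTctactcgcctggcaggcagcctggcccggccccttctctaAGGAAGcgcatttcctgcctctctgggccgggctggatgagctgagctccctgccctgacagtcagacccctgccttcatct
Ehd3: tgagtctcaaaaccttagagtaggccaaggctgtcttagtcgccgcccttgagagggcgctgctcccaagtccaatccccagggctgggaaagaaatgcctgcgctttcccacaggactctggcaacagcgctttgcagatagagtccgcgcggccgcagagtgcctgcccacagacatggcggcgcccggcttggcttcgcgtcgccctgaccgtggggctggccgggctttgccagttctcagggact
In Emcn the composite FOX-ETS match was on the reverse strand and overlapped the first ETS match.

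Between 39556 and 43184 probes per array were well above background, and 0 spots were saturated. Control 3 had the fewest such probes, and 34 of its spots carried outlier flags, against 4 on DPG 1 and 0 on the other arrays. The tissue label was checked by markers. Slc34a1, Umod and Nphs1, of the proximal tubule, thick ascending limb and podocyte, were well above background on all 6 arrays, as were the 24 tested endothelial members. All control arrays were on 1 slide and scanned together, and all DPG arrays on a second slide, so slide and treatment cannot be told apart. Values below are log2 signals relative to the 75th percentile of the array (0 is that percentile, and a step of 1 is a doubling). They compare arrays for the same gene and say nothing of levels between genes.

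As a group the 24 measured endothelial genes had a mean difference near 0 between water and DPG, and its sign depended on which members were averaged. The endothelial score of an array is the mean over the 24 members of the log2 signal minus the control mean of that member. It was -0.028, -0.0088 and 0.037 in controls 1 to 3 and 0.026, -0.015 and -0.021 in DPG 1 to 3. The DPG scores lay inside the range of the controls. The group means differed by -0.0031 (SD 0.034 in control and 0.026 in DPG, n = 3 each). Without 5 measured members that leukocytes or platelets also express the difference was 0.027, and without Ets1 it was 0.031. On both choices, which both leave out Ets1, every DPG array lay above every control. The groups overlapped without Ets1 and Sox18 (-0.037 to 0.027 in the controls, -0.0047 to 0.083 in DPG). They also overlapped with the median of members as the score (-0.052 to 0.020 in the controls, 0.014 to 0.038 in DPG). The median log2 fold change of the members was -0.0064, against 0.0035 over all features, and 12 of 24 members lay above 0, as did 50.8% of all features. Log2 fold changes under 0.1 in size were found for 11 of 24 members (45.8%) and 44.7% of features, and under 0.25 for 22 of 24 (91.7%) and 78.4%. The members' median size of change, 0.12, was near that of all features, 0.11.

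None of the 24 members passed the adjusted threshold of 0.05 (limma with Benjamini-Hochberg adjustment over 29647 features), where 0 features passed in all, and the smallest adjusted p of a member was 0.331. At an unadjusted p of 0.05, 2 of 24 members passed (8.33%), both higher in DPG, against 12.4% of all features, 6.68% higher and 5.7% lower. That count was 0 without control 1, 1 without DPG 2 and 1 without DPG 3. In 4 of 24 members (16.7%) the 3 DPG arrays lay clear of the 3 controls, each time above them, against 19.7% of all features (10.7% above and 8.96% below). Without control 1, 7 of 24 members did not overlap, against 28.1% of all features, and without control 3 it was 9 of 24, against 30.8%. Shares this near the background are no result about the members. For 20 of 24 members (83.3%) the 95% interval of the log2 fold change from limma lay within 1.5-fold either way, against 71.8% of all features. The exceptions were Ehd3, Ets1, Sox18 and S1pr1.

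**Figure D1:**
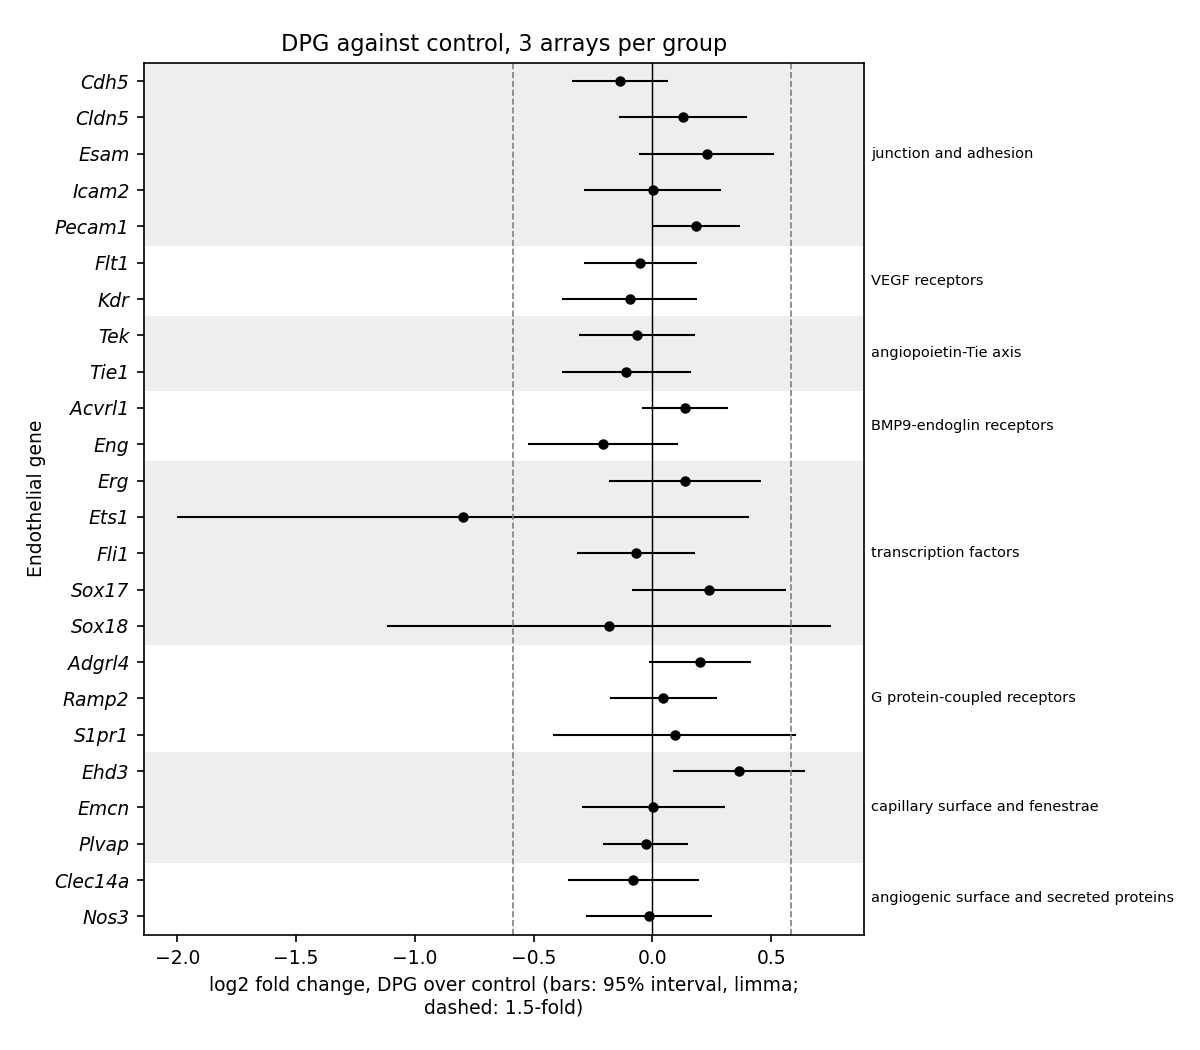
Log2 fold change of each of the 24 measured endothelial genes, DPG over control (x axis), with its 95% interval from limma as bars and 1.5-fold either way as dashed lines, ordered by role. Most points sit within 0.25 of 0, and the widest intervals belong to Ets1 and Sox18.

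Among the junction and adhesion genes, Pecam1 was higher in DPG. It encodes the platelet and endothelial adhesion molecule of cell borders. Its signal was 2.24, 2.31 and 2.14 in controls 1 to 3 and 2.48, 2.36 and 2.41 in DPG 1 to 3. Every DPG array lay above every control array, with DPG 2 close above control 2. DPG exceeded control by 0.18 ± 0.075 on the log2 scale (SE, 3 arrays a group), or 1.14-fold, and limma gave an unadjusted p = 0.0498 and an adjusted p = 0.404. Leaving out each array in turn gave a limma unadjusted p from 0.0411 to 0.142. A second, dimmer Pecam1 probe gave 0.19, and there the groups overlapped.

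Cdh5, which encodes the adherens junction protein VE-cadherin, lay the other way from Pecam1. Its signals were -1.75, -1.77 and -1.70 in the controls and -1.74, -1.92 and -1.97 in DPG, and DPG 1 sat among the controls. The log2 fold change was -0.14 ± 0.082 (limma adjusted p = 0.548), with -0.16 on its second probe, and with normexp background correction it was 0.016. Esam, an adhesion molecule of endothelial tight junctions, had 0.039, 0.18 and 0.43 in the controls and 0.45, 0.36 and 0.52 in DPG. Control 3 reached into the DPG range, and the log2 fold change was 0.23 ± 0.12 (limma adjusted p = 0.483). Cldn5, a claudin of endothelial tight junctions, and Icam2, a ligand for leukocyte integrins, had log2 fold changes of 0.13 and 0.0013, both with overlapping groups. The 5 junction genes together had a mean shift of 0.19 in DPG 1, -0.0058 in DPG 2 and 0.058 in DPG 3, while the controls ranged from -0.021 to 0.020.

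The VEGF receptors lay close to their control levels. Kdr, the main signalling receptor for VEGF-A, had 4.49, 4.16 and 4.48 in the controls and 4.30, 4.38 and 4.17 in DPG, with the groups interleaved. Its log2 fold change of -0.096 ± 0.12 had a 95% interval from -0.38 to 0.19. Flt1, a VEGF receptor that also acts as a decoy, had -2.36, -2.08 and -2.14 in the controls and -2.25, -2.32 and -2.17 in DPG. All DPG arrays lay inside the control range, and the 3 Flt1 probes gave log2 fold changes of -0.051, -0.13 and -0.15. The 95% intervals of both receptors lay within 1.5-fold either way, and a p above the threshold does not show that they were equal.

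Of the angiopoietin receptors, Tek (also called Tie2) had -2.58, -2.61 and -2.75 in the controls and -2.61, -2.64 and -2.88 in DPG. Its partner receptor Tie1 had -0.89, -1.06 and -1.26 in the controls and -1.26, -1.09 and -1.20 in DPG. The groups overlapped for both, with log2 fold changes of -0.065 ± 0.10 and -0.11 ± 0.11. The dimmer Tek probe read 0.094, opposite in sign to the brighter one.

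The receptors for circulating BMP ligands, Acvrl1 and Eng, did not pass the unadjusted threshold. Acvrl1, the kinase receptor ALK1, was 0.89, 0.97 and 0.78 in the controls and 0.99, 1.04 and 1.02 in DPG. The groups did not overlap, although control 2 lay just below DPG 1, and the log2 fold change was 0.14 ± 0.074 (limma adjusted p = 0.512). With normexp background correction it was 0.24 (limma unadjusted p = 0.0289). Its coreceptor Eng had 1.09, 0.82 and 0.67 in the controls and 0.74, 0.51 and 0.71 in DPG. Only DPG 2 lay below all controls, and the log2 fold change was -0.21 ± 0.13 (limma adjusted p = 0.559).

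Transcription factors held the most variable members. Ets1, an ETS factor also abundant in lymphocytes, was -2.79, -2.42 and -0.86 in controls 1 to 3 and -2.69, -2.82 and -2.96 in DPG. Control 3 alone stood high, with no outlier flag on that spot. The log2 fold change of -0.80 ± 0.49 (limma adjusted p = 0.557) shrank to -0.22 without control 3. Ets1 had a single probe, and its within-group SD of 0.73 exceeded that of 97.9% of all features. Without Ets1 the endothelial score of the module was 0.0035, 0.0081 and -0.012 in the controls and 0.056, 0.019 and 0.019 in DPG, a difference of 0.031. On that choice, made after the values were seen, all 3 DPG arrays lay above the controls by a few hundredths. With Sox18 left out as well the groups overlapped.

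Sox18, a SOX factor of developing blood and lymphatic vessels, was high in 1 animal of each group. Its signals were 0.24, -0.034 and 0.93 in controls 1 to 3 and -0.15, -0.18 and 0.92 in DPG 1 to 3. Its second probe showed the same order, with -0.80, -1.14 and -0.15 in the controls and -1.22, -1.40 and -0.14 in DPG. Control 3 and DPG 3 thus stood above the other 4 arrays on both probes, by 0.68 on the brighter one. Only 5 of 29647 features had these arrays as their highest pair with a gap that wide, as counted after the pattern was seen. The log2 fold change was -0.18 ± 0.38 (limma adjusted p = 0.872). It was 0.093 without control 3 and -0.54 without DPG 3.

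Sox17, a SOX factor of arterial endothelium, had -3.66, -3.70 and -3.30 in the controls and -3.26, -3.24 and -3.46 in DPG. Control 3 overlapped the DPG range, and the log2 fold change was 0.24 ± 0.13 (limma adjusted p = 0.521). Erg and Fli1, ETS factors that maintain endothelial identity, had 0.14 ± 0.13 and -0.069 ± 0.10. The other Erg probes read -0.064 and -0.030, so its probes disagreed in sign.

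**Figure D2:**
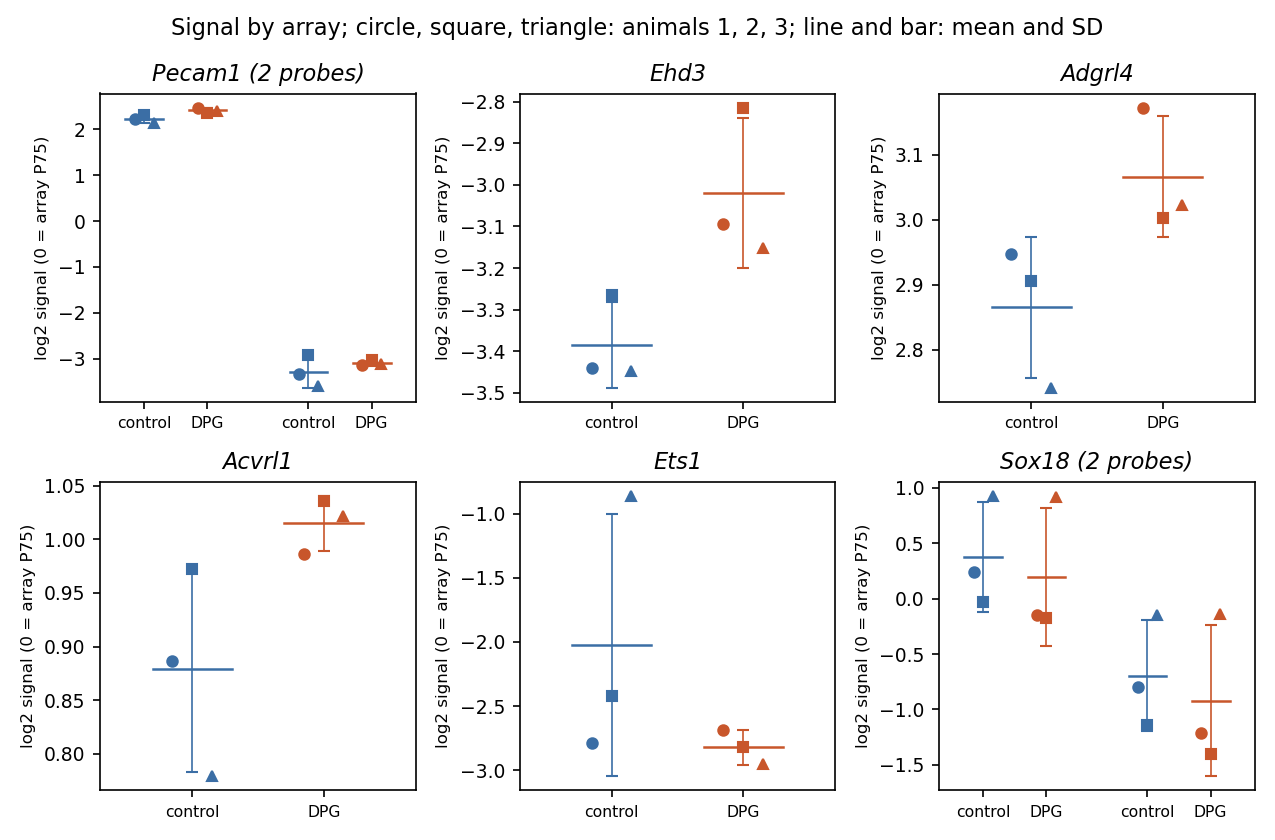
Log2 signal (y axis, 0 is the array's 75th percentile) of 6 endothelial genes in the control and DPG groups, each point 1 array, with group mean (line) and SD (bar); genes with 2 kept probes show both. Pecam1 (brighter probe), Ehd3, Adgrl4 and Acvrl1 have all DPG arrays above the controls, Ets1 is high on control 3 only, and Sox18 is high on control 3 and DPG 3.

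Of the G protein-coupled receptor genes, Adgrl4, an adhesion receptor of vessels, read 2.95, 2.91 and 2.74 in the controls and 3.17, 3.00 and 3.02 in DPG. The groups did not overlap, and the log2 fold change was 0.20 ± 0.088 (limma adjusted p = 0.432), and 0.25 with normexp background correction (limma unadjusted p = 0.0233). S1pr1, the receptor for sphingosine 1-phosphate that tightens junctions and directs lymphocyte exit, had 0.068, 0.42 and -0.087 in the controls and 0.40, 0.44 and -0.16 in DPG. It was lowest on control 3 and DPG 3, the arrays on which Sox18 was highest. Emcn and the brighter Tek probe were also lowest on that pair. The dimmer Tek probe was lowest on DPG 3 (-4.58) and control 1 (-4.44), with control 3 at -4.09. Control 3 and DPG 3 were the lowest pair for 3 of 24 members and for 6.29% of all features. Ramp2, the partner that makes Calcrl an adrenomedullin receptor, had log2 fold changes of 0.046 and 0.087 on its probes. Calcrl itself was well above background on 2 of 3 arrays in each group and was not tested.

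Ehd3, an endocytic adaptor known for its restriction to glomerular endothelium within the kidney, was the member furthest above its control level. Its signal was -3.44, -3.27 and -3.45 in controls 1 to 3 and -3.09, -2.81 and -3.15 in DPG 1 to 3. All DPG arrays lay above all controls. DPG exceeded control by 0.37 ± 0.11 on the log2 scale, or 1.29-fold (95% interval 1.06 to 1.56), and limma gave an unadjusted p = 0.0184 and an adjusted p = 0.331. With normexp background correction the difference was 0.21, and without control 1 or control 3 the limma unadjusted p was 0.0567 and 0.0563. A single probe stood for Ehd3.

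The other tested capillary genes lay near their control levels. Emcn, the sialomucin endomucin of glomerular and peritubular capillaries, was 1.68, 1.5 and 1.23 in the controls and 1.5, 1.49 and 1.42 in DPG, with all DPG arrays inside the control range. Plvap, of the diaphragms of peritubular fenestrae, was 5.65, 5.68 and 5.61 in the controls and 5.52, 5.65 and 5.70 in DPG. Its log2 fold change of -0.027 ± 0.073 had a 95% interval from -0.21 to 0.15, and the second probe read -0.030. Among the 24 members Plvap had the smallest within-group SD, 0.069. Gpihbp1, the capillary anchor of lipoprotein lipase, was well above background on only 1 of the 3 controls and on 0 DPG arrays. Its signals were -5.795, -4.95 and -5.42 in the controls and -5.805, -6.18 and -6.44 in DPG. No fold is given, since most arrays of both groups were not well above background. Gpihbp1 was not tested, because it was not well above background throughout either group.

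The remaining measured members lay near their control levels. Nos3, the endothelial nitric oxide synthase, had a log2 fold change of -0.014 ± 0.11, and Clec14a, a C-type lectin of angiogenic vessels, -0.081 ± 0.11. The 3 Clec14a probes ran from -0.089 to 0.096. Across the module, 10 members had several kept probes, and in 3 of these (Clec14a, Erg and Tek) the probes differed in sign.  Control 1, DPG 1 and DPG 2 were each the highest array for 5 members, control 3 was the lowest for 7 of 24, and over all features control 3 was the lowest for 18.5%.

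**Figure D3:**
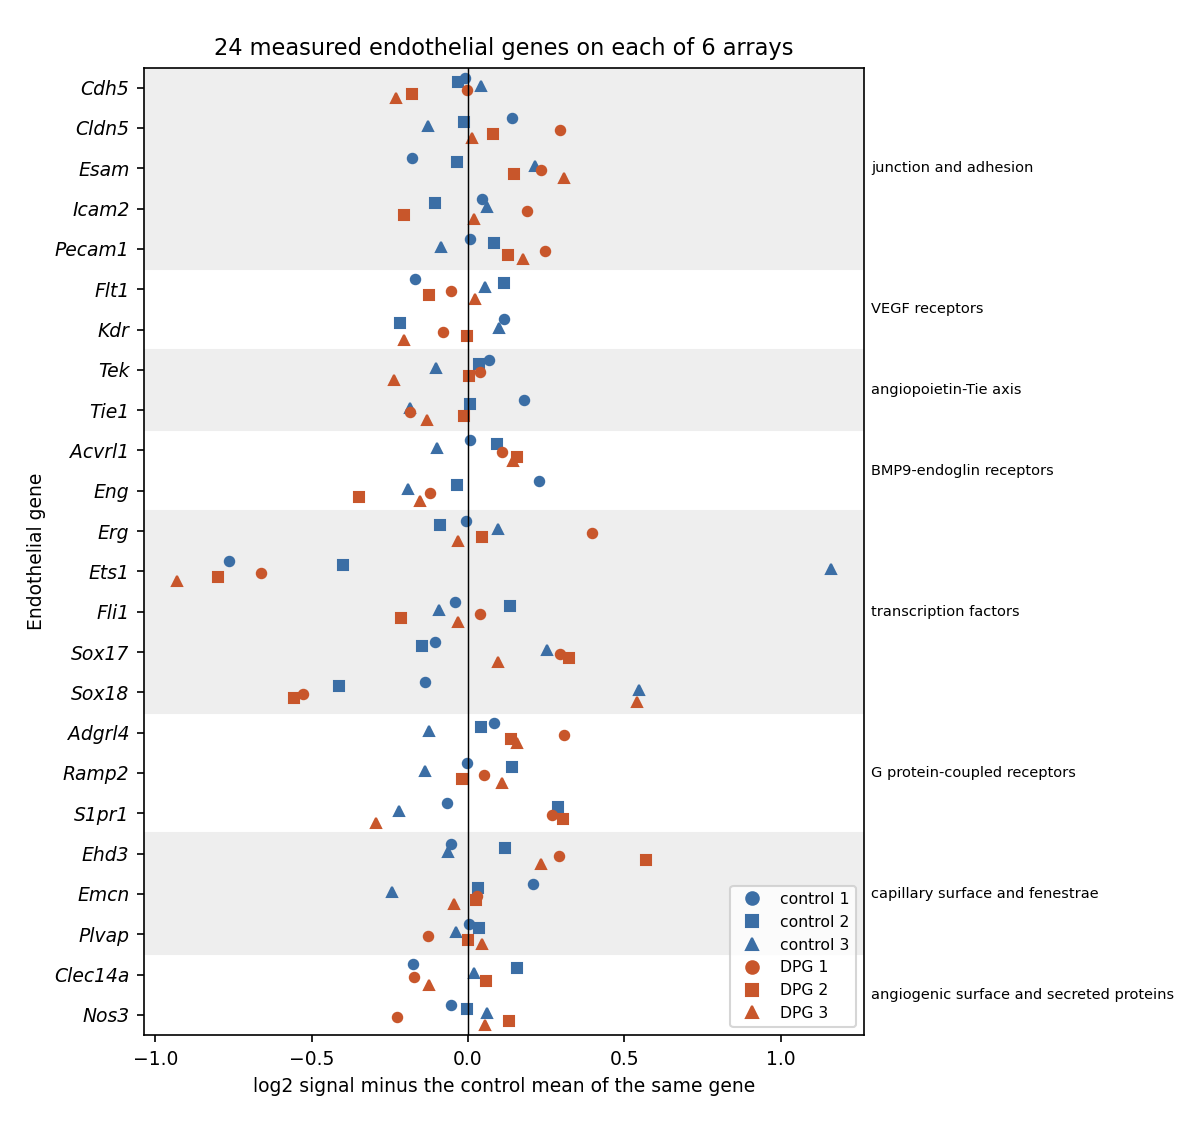
Log2 signal minus the control mean of the same gene (x axis) for the 24 measured endothelial genes, ordered by role, with 1 point for each of the 3 control arrays (blue) and 3 DPG arrays (orange). Most points lie within 0.3 of 0, control 3 stands apart for Ets1, and control 3 and DPG 3 stand apart for Sox18.

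Other genes of vascular signalling were read from 6 lists holding 115 genes, 101 of them tested. Of these 22 passed an unadjusted p of 0.05 (21.8%), 11 higher and 11 lower in DPG, against 12.4% of all features. By limma 0 passed the adjusted threshold, and the smallest adjusted p was 0.214. Their median log2 fold change was -0.012. In 26 of the 101 (25.7%) the groups did not overlap, against 19.7% of all features. The lists were chosen with earlier results of these data known, so neither share is evidence of an excess among vascular genes. The vascular genes named below were picked by their p, so groups that do not overlap are no further support for them.

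Among ligands and coreceptors of the VEGF, angiopoietin, Slit and BMP pathways, 2 of 19 were higher and 3 lower at an unadjusted p of 0.05. Of all features 6.68% were higher and 5.7% lower. Angpt2, the endothelial antagonist ligand of Tek, was -0.25, -0.68 and -0.40 in the controls and 0.051, -0.0034 and -0.056 in DPG. Angpt1, the agonist ligand made by perivascular cells and podocytes, was -0.69, -0.56 and -0.58 in the controls and -1.07, -0.86 and -0.85 in DPG. Both separated the groups, in opposite directions. The log2 fold change was 0.44 ± 0.12 for Angpt2 and -0.32 ± 0.088 for Angpt1 (limma adjusted p = 0.294 and 0.304). Angpt1 was named after its values were seen, being the fifth of its list. Nrp1, a VEGF coreceptor, had -0.37 ± 0.086, Slit2, a guidance ligand, -0.36 ± 0.065 and Bmp4, a bone morphogenetic protein, 0.33 ± 0.086, each with groups that did not overlap.

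Notch and arterial genes had 2 of 15 higher and 3 lower (of all features 6.68% and 5.7%). Dll4, a Notch ligand of arterial and sprouting endothelium, was -2.77, -2.72 and -2.73 in the controls and -3.11, -3.34 and -3.28 in DPG. Its log2 fold change was -0.51 ± 0.082 (limma adjusted p = 0.214), and its second probe read -0.068. With normexp background correction it was -0.24. The receptor gene Notch4 was -0.77, -0.77 and -0.67 in the controls and -0.31, -0.19 and -0.36 in DPG, a log2 fold change of 0.45 ± 0.075 (limma adjusted p = 0.214). The groups were apart for both genes. The ligand gene Jag1 (0.48 ± 0.22) and the receptor gene Notch1 (0.054 ± 0.11), named after their values were seen, had overlapping groups. Gja4, an arterial gap junction gene, had 0.29 ± 0.066, and Dll1, a further Notch ligand, -0.39 ± 0.098. With normexp background correction Dll1 was -0.22 and did not pass (limma unadjusted p = 0.0554).

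Further endothelial genes outside the module had 5 of 24 higher and 2 lower (of all features 6.68% and 5.7%). Galnt18, a glycosyltransferase, had 0.50 ± 0.11, Shank3, a scaffold protein, 0.36 ± 0.091, the forkhead factor Foxc1 0.68 ± 0.20 and the tetraspanin Tspan18 -0.32 ± 0.081. With normexp background correction Galnt18 was 0.25 and did not pass (limma unadjusted p = 0.143). None of these had overlapping groups, and their limma adjusted p lay between 0.256 and 0.312. Of venous, peritubular and glomerular endothelial genes, 1 of 16 was higher and 1 lower, near the shares of all features. Gata5, a GATA factor, had -0.51 ± 0.19 (-0.28 with normexp background correction), and Fabp4, a fatty acid carrier of capillaries and adipocytes, 1.89 ± 0.70 with overlapping groups (1.22 with normexp background correction). Fabp4 ran from -4.74 to -2.18 in the controls and from -2.45 to -1.30 in DPG. Adipocyte markers, of which 3 of 7 were tested, had a mean shift from -0.25 to 0.26 in the controls and from 0.19 to 0.70 in DPG, and their part in the Fabp4 value was not tested. The 3 differed in direction, with Adipoq at -0.45 ± 0.14, Retn at 1.43 ± 0.50 and Cidec at 0.56 ± 0.20. Retn was well above background on only 1 of the 3 controls.

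Of endothelial activation genes, 1 of 8 was higher and 1 lower (of all features 6.68% and 5.7%). Icam1, a leukocyte adhesion molecule, had -0.24 ± 0.090 (limma unadjusted p = 0.0523 with median scaling). In the endothelin, nitric oxide and prostacyclin list 0 of 20 were higher and 1 lower, Gucy1a1, a subunit of the nitric oxide receptor, with -0.25 ± 0.091 (limma unadjusted p = 0.0666 with normexp background correction). With at most 1 gene each way, these counts are no result about either list.

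**Figure D4:**
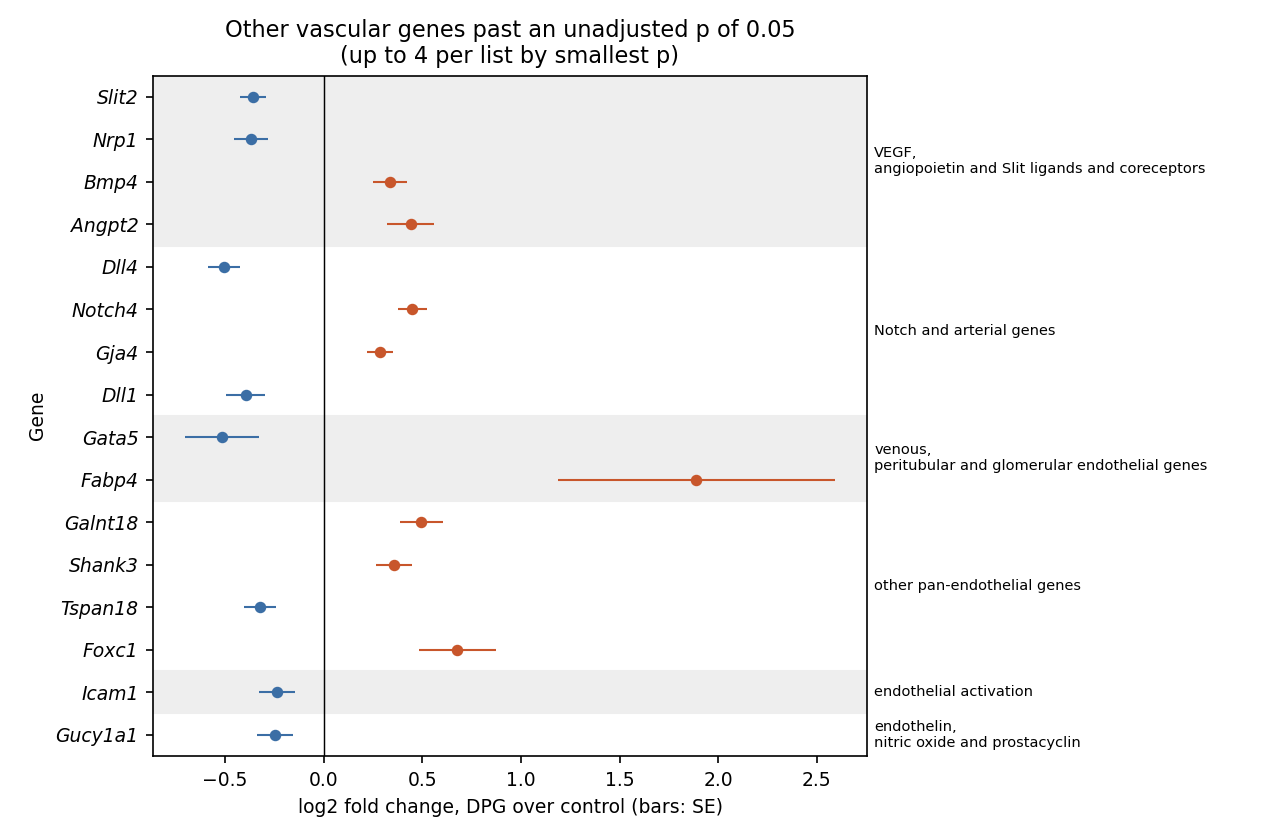
Log2 fold change, DPG over control (x axis), with its SE as bars, of vascular genes outside the module that passed an unadjusted p of 0.05, up to 4 per list. Notch4, Angpt2 and Foxc1 lie above 0, Dll4, Nrp1 and Slit2 below, and Fabp4 has the widest bar.

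Markers of neighbouring cells were read on the same arrays. Podocyte markers lay below their control mean in 13 of 13 tested genes, with 5 lower at an unadjusted p of 0.05 (of all features 5.7% were), such as Ptpro (-0.22 ± 0.068), and 0 past the adjusted threshold. Their mean shift ran from -0.12 to 0.18 in the controls and from -0.32 to -0.090 in DPG, so the groups overlapped. The glomerular member Ehd3 was higher on those DPG arrays. Mesangial, pericyte and smooth muscle markers had 2 of 13 higher (of all features 6.68% were), Mcam (0.35 ± 0.11) and Rgs5 (0.29 ± 0.10), and a median of 0.028. Lymphatic endothelial markers had a median of -0.17 over 6 genes, 1 of them lower at an unadjusted p of 0.05, Reln (-0.46 ± 0.18). Flt4 (-0.48, and -0.026 on its second probe) and Ccl21 (-0.37) also lay below 0. The other 3 lay above 0, Lyve1 at 0.17, Pdpn at 0.10 and Mmrn1 at 0.036. The mean shift of the 6 genes ran from -0.059 to 0.055 in the controls and from -0.26 to -0.062 in DPG. All DPG arrays thus lay below the controls, DPG 1 by very little.

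Several members are also transcribed in blood cells. Leukocyte markers, 15 of 22 tested, shifted by -0.14 to 0.19 in the controls and by -0.32 to 0.40 in DPG, with DPG 2 lowest. Platelet markers, 5 of 10 tested, shifted by -0.033 to 0.062 in the controls and by -0.14 to 0.094 in DPG. Red blood cell markers, 4 of 7 tested, shifted by -0.15 to 0.14 and by -0.22 to 0.092. Without 5 measured members that leukocytes or platelets also express (Ets1, Fli1, S1pr1, Pecam1 and Icam2), the endothelial score was 0.0073, -0.011 and 0.0039 in the controls. It was 0.029, 0.023 and 0.030 in DPG, a difference of 0.027 with the DPG arrays above the controls. Ets1, high on control 3 only, is among the 5, and leaving out Ets1 alone gave a difference of 0.031. The part of blood cells in these scores was not tested.

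Tubule marker lists had wider shifts than the endothelial module, with no test of that difference. Convoluted proximal tubule markers shifted by -0.20 on each DPG array, below controls that ran from -0.10 to 0.072. Of those 10 genes 1 lay above 0, Lrp2 (0.11). Straight proximal tubule markers shifted by 0.22 to 0.32 in DPG, above controls from -0.15 to 0.080. The genes of this list differed in direction, with 7 of 10 above 0. Slc5a10 (-0.23), Slc5a1 (-0.12) and Slc13a3 (-0.11) lay below. Thick limb and distal tubule markers ran from -0.074 to 0.12 in the controls and from 0.11 to 0.22 in DPG. Within that list 6 of 9 genes lay above 0, such as Cldn16 (0.70), Slc12a1 (0.47) and Umod (0.25). The distal genes Trpv5 (-0.42), Calb1 (-0.34) and Slc12a3 (-0.018) lay below 0. For collecting duct markers the ranges were -0.029 to 0.043 and -0.21 to -0.0012. There 3 of 11 genes lay above 0, Aqp2 (0.17), Avpr2 (0.045) and Scnn1b (0.043). The part of these shifts in the endothelial values was not tested.

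**Figure D5:**
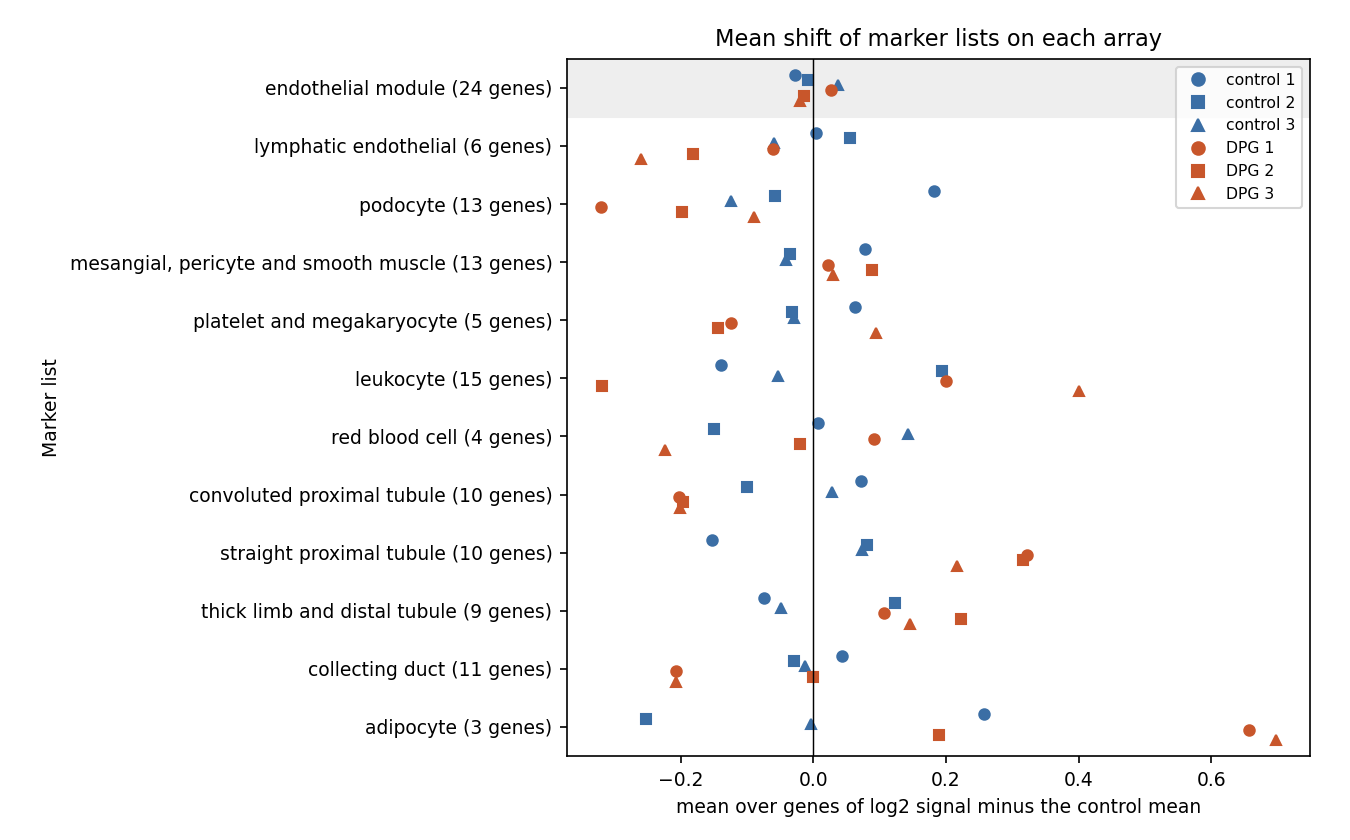
Mean over genes of log2 signal minus the control mean (x axis) for the endothelial module and 11 marker lists of other cells, with 1 point per array (blue control, orange DPG). The 6 endothelial points lie between -0.028 and 0.037, while the proximal tubule lists separate the groups.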

How the data were processed

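The authors processed the scans in Agilent Feature Extraction (file headers: 10.7.1.1; submitters' processing notes: 10.7). The processed signal is a deposited spot intensity on a linear scale, not scaled between arrays, per the file headers. The deposited table of the series holds linear values, namely the ratio of the processed signal over roughly the array's 75th percentile. Column medians ran 0.110, 0.111 and 0.114 (controls) and 0.111, 0.108 and 0.112 (DPG). Genes are not centred in it, and its scaling by the authors was not stated in the sources read.

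Signals were put on the log2 scale relative to the 75th percentile of the same array. A probe was kept if every array of either group had it well above background (40406 probes), less 23 with an outlier flag. Names came from accessions in a RefSeq table of GRCr8, which gave 28206 probes 1 symbol each and left 33331 under their own identifier. The brightest kept probe stood for a gene.

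The comparison used limma 3.58.1 under R 4.3.3, by lmFit then eBayes (two-sided, 4 residual and 1.95 prior degrees of freedom), over all 29647 features. A value with ± is a log2 fold change of DPG over control and its SE. An exact permutation test of 3 against 3 cannot go below p = 0.1. Members and lists were chosen with earlier results of these data known. Members described in full were those past an unadjusted p of 0.05, those with non-overlapping groups, the 3 furthest each way, and Pecam1, Cdh5, Kdr, Flt1, Emcn, Plvap, Ehd3 and Tek. From each other vascular list up to 4 genes past that p were named, by smallest p. Some genes that this rule covers are not reported here, and counts over lists include them.

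Tested on simulated data for DPG against control over 29647 features, the fit called 20% of features set to 1.5-fold, 82% of those set to 2-fold, 94% for 4-fold, 98% for 8-fold, and 10 unchanged features. The alternatives were normexp background correction (offset 50, on the median pixel intensity, since the deposited files hold no mean pixel signal), median and quantile scaling, filters on dim probes, outlier flags kept, probe means, single probes, an intensity trend, array weights, the deposited table, a replicate block and leaving out each array.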

Additional observations from a re-analysis of the deposited data

How the results depend on the processing

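No member passed the adjusted threshold under any of the 17 refits. Of 11 members further from 0 than their SE, 10 kept their sign in all 17, and Cdh5 was 0.016 with normexp. Of 13 members within 1 SE of 0, for which no direction is given, 10 changed sign at least once. The difference in endothelial score was -0.044 with no filter on dim probes and 0.035 as a median of members. It was 0.027 without 5 members that leukocytes or platelets also express, Ets1 among them. Without Ets1 alone it was 0.031, and without Ets1 and Sox18 it was 0.041, these last 2 chosen after seeing the data. The members' median was 0.025 with normexp. Members past an unadjusted p of 0.05 numbered 1 with quantile normalization, with the mean of kept probes, with the deposited table and with the replicate block. Leaving out an array gave 0 to 2 such members (8.56% to 13.2% of all features), 5 to 9 members with non-overlapping groups (27.6% to 34.3% of all features), and 0 to 1 features past the adjusted threshold (1 without DPG 2). The cause was not tested. Same-numbered animals did not deviate together (correlations -0.023, -0.087 and -0.069), so the replicate number is no pairing, and the block took the count of members from 2 to 1. With 1 group on each slide, no slide block was possible. The number of arrays and signal over background limit the dimmest members, Calcrl and Gpihbp1.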
